A study of Saccharomyces cerevisiae with 68 samples.

Results

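The transcripts of lower glycolysis, from aldolase to pyruvate kinase, were followed through heat shock in the budding yeast Saccharomyces cerevisiae. The 10 genes were chosen by name, as rows of the deposited value table, and made up 10 of its 6297 open reading frames. In pathway order they were FBA1 (YKL060C), TPI1 (YDR050C), TDH1 (YJL052W), TDH2 (YJR009C), TDH3 (YGR192C), PGK1 (YCR012W), GPM1 (YKL152C), ENO1 (YGR254W), ENO2 (YHR174W) and CDC19 (YAL038W). All 10 had values, with 593 of 600 possible values in the time courses and 80 of 80 at 25C. All 10 passed the filter of the main analysis, a value in every group, while TPI1, TDH3, GPM1 and CDC19 lacked a value on 1 to 3 time-course arrays each.

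Lower glycolysis turns the sugar bisphosphate made by upper glycolysis into pyruvate and recovers ATP on the way. In yeast growing on glucose its enzymes are among the most abundant proteins of the cell, and the pyruvate goes mostly to ethanol through pyruvate decarboxylase and alcohol dehydrogenase. The genes share activators, among them Gcr1, Gcr2 and Rap1, and several steps have isozymes encoded by paralogous genes.

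Heat shock was measured in 5 strains, K9, M22, RM11-1a, YPS163 and the laboratory strain DBY8268, which the study's design text calls the S288c reference and sets against 4 non-laboratory strains. The labels give the strains by name and no further genotype or ploidy. Cultures of all 5 strains were in exponential growth at 25C in YPD, a rich glucose medium, and were brought to 37C by adding prewarmed medium. Each strain was sampled at 5, 15, 30, 45, 60 and 120 min in 2 series, each against RNA of the same strain at 25C on a 2-colour microarray, which gave 60 arrays. A further 8 arrays at 25C set each non-laboratory strain against DBY8268, with 2 arrays per strain. The values are log2 ratios, the RNA of the heat-shocked culture over that at 25C, or a strain over DBY8268. Base 2 was taken here, since the labels do not state the base. Whether the 2 series were independent cultures is not clear from the labels, so every p-value here reflects only how far these arrays varied, in part perhaps for technical reasons. The number of arrays limited the precision, since each strain and time had n = 2.

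An array gave a value for 3418 to 6098 reading frames in the time courses and for 4587 to 5659 at 25C. The direction of the 25C ratios was checked on genes missing from strains. The ASP3 genes, present in S288c, lay between −4.71 and −7.62 wherever measured, and LEU2 and URA3, which the RM11-1a strain is known to lack, lay at −5.57 and −6.43 on the 1 array of it with values. All 11 testable genes of 14 listed general stress genes rose at 15 min, when 38.1% of all genes tested did. Their median log2 ratio was 5.80, with HSP104, for a protein disaggregase, at 6.35. The labels name another 25C reference for 3 arrays and mark 1 array of YPS163 at 60 min as a technical repeat.

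The 2 arrays of a strain and time stood apart for these genes. In all strains but K9 the first series had the heat-shocked RNA in the 650 dye and the second had it in the 550 dye, while both K9 series had it in the 650 dye. Replicate 1 lay above replicate 2 in 50 of 55 pairs of values in DBY8268, 54 of 60 in RM11-1a, 52 of 60 in M22, 40 of 59 in K9 and 34 of 59 in YPS163. The dye term of the model passed the test in 6 of the 10 members, all 6 with higher ratios in the 650 orientation, and in 16.4% of all genes (3.69% in that direction). The term is the deviation of the 650 orientation from the mean of both orientations. It was largest for ENO1 at 0.27 (SE 0.06, adjusted p = 0.00128) and came to 0.24 for TPI1 and 0.23 for both TDH2 and TDH3. The fitted values are adjusted for this term, which for K9 comes from the other strains.

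The first comparison asked how the transcripts changed on average over the 5 strains. At 15 min 4 of 10 members were lower, near the share of all 4360 genes tested (39.9%). Most members were lower from 30 min on, with 6 at 30 min, against 26.8%. At 45 min 9 were lower (20.4% of all genes), at 60 min 9 (22.6%) and at 120 min 7 (20.9%). FBA1 and CDC19 had the lowest means, FBA1 at 42.9% of the 25C level at 60 min and CDC19 at 47.6% at 30 min. GPM1 rose at 5 min, when 31.1% of all genes did, and PGK1 at 15 min, when 38.1% did, and PGK1 was the only member with no decline past the test at any time, although with each time fitted alone it passed as lower at 60 min (−0.24, adjusted p = 0.0414). The ratios compare shares of labelled RNA, so a lower share in every cell and a loss of the transcript in some of the cells cannot be told apart.

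Called here means a Benjamini-Hochberg adjusted p under 0.05 over all genes tested. In either direction 1 of 10 members was called at 5 min, against 67.3% of all genes, and 5 at 15 min, against 78.1%. The 6 called at 30 min stood against 67.3%, the 9 at 45 min against 54%, the 9 at 60 min against 46.9% and the 7 at 120 min against 51.6%. The members' share of calls was thus below that of all genes at 5 and 15 min, near it at 30 min and above it later. Leaving out 1 series gave counts from 4 to 7 at 30 min and 4 to 9 at 45 min. They ran from 5 to 9 at 60 min and 4 to 8 at 120 min, with as few as 6 members tested. Their median log2 ratio was 0.07, −0.21, −0.40, −0.57, −0.60 and −0.42 at the 6 times, while that of all genes tested lay between −0.04 and 0.11. With every array centred on its own median, the all-gene median at 30 min was −0.01 in place of 0.11, and the members' counts came to 1 higher at 5 min and 5, 6, 9, 9 and 8 lower at the later times, with none higher at those times. Centring also raised the lower calls among all 4360 genes. From 15 to 120 min they numbered 1816, 1482, 1170, 1187 and 1200, in place of 1741, 1168, 888, 987 and 910.

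**Figure D1:**
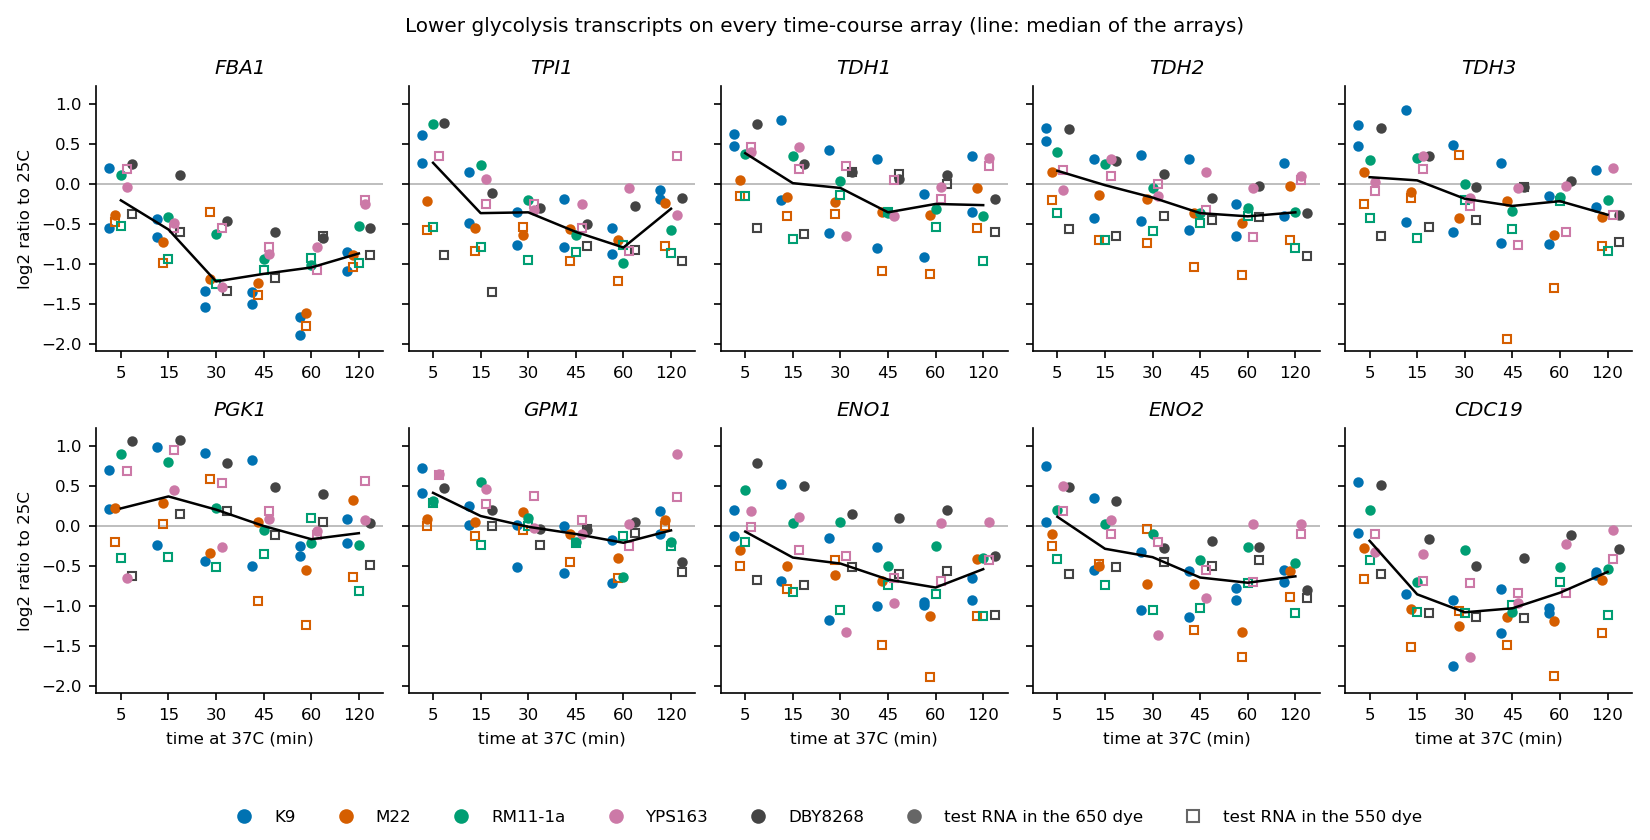
Log2 ratio to the same strain at 25C (vertical axis) against time at 37C in min (horizontal axis, evenly spaced times) for each of the 10 genes; points are single arrays, coloured by strain, filled where the heat-shocked RNA carried the 650 dye and open where it carried the 550 dye, and the black line is the median of the arrays. FBA1 and CDC19 lay below 0 on every measured array from 30 min on, while PGK1 and GPM1 lay on both sides of 0.

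FBA1 encodes fructose-bisphosphate aldolase, which splits the sugar bisphosphate and opens lower glycolysis. Its 10 arrays had a lowest, median and highest log2 ratio of −0.54, −0.20 and 0.25 at 5 min, −0.99, −0.56 and 0.12 at 15 min, −1.54, −1.21 and −0.35 at 30 min, and −1.89, −1.04 and −0.64 at 60 min. Every array lay below 0 from 30 min on, in both dye orientations. The fitted mean of the 5 strains was −0.58 at 15 min (SE 0.09, adjusted p = 5.69e-07), −1.01 at 30 min, −1.11 at 45 min, −1.22 at 60 min (SE 0.09, adjusted p = 4.68e-13) and −0.74 at 120 min. The value at 5 min, −0.17, did not pass (adjusted p = 0.0925). FBA1 was called lower in 23 of the 30 groups of strain and time, more than any other member.

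TPI1 encodes triose phosphate isomerase, which interconverts the products of aldolase. It had 9 or 10 measured arrays at each time, with a lowest, median and highest of −0.89, 0.27 and 0.77 at 5 min, −1.35, −0.36 and 0.24 at 15 min, and −1.21, −0.79 and −0.04 at 60 min. At 5 min the orientations lay on opposite sides of 0, with a mean of 0.44 ± 0.41 in the 650 orientation (SD, n = 5) and −0.41 ± 0.54 in the 550 orientation (n = 4). From 30 to 60 min all measured arrays were below 0. The fitted mean was −0.44 at 15 min (SE 0.11, adjusted p = 0.000748), −0.75 at 60 min (adjusted p = 1.47e-06) and −0.43 at 120 min.

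TDH1, TDH2 and TDH3 encode glyceraldehyde-3-phosphate dehydrogenase, the NAD-linked oxidation step. TDH3 is the main isozyme in cells growing on glucose, and TDH1 is known for its use in slow-growing and stressed cells. At 15 min TDH1 ranged from −0.68 to 0.81 with a median of 0.01, TDH2 from −0.70 to 0.32 with a median of −0.01, and TDH3 from −0.67 to 0.93 with a median of 0.05. Each of the 3 had 5 arrays below and 5 above 0, and none of their fitted means passed (−0.02, −0.18 and −0.02). At 60 min TDH1 ranged from −1.12 to 0.12, TDH2 from −1.14 to −0.02 and TDH3 from −1.30 to 0.04. All 3 fell at that time: TDH1 by 0.37 (SE 0.12, adjusted p = 0.0121), TDH2 by 0.48 (SE 0.10, adjusted p = 9.23e-05) and TDH3 by 0.46 (SE 0.14, adjusted p = 0.00853). At 120 min TDH2 and TDH3 were lower, at −0.35 and −0.40, and TDH1 at −0.24 missed the threshold (adjusted p = 0.0939). Without the second M22 series the decline of TDH1 at 60 min no longer passed (−0.32, adjusted p = 0.0815), and without a dye term that of TDH3 missed at 60 min (−0.37, adjusted p = 0.0705) and at 120 min (−0.36, adjusted p = 0.0519).

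The earlier declines of the TDH genes were weaker. TDH2 was called at 30 min (−0.25, adjusted p = 0.0208), and the call ended without the second series of DBY8268, K9, M22 or RM11-1a or the first of YPS163 (adjusted p from 0.0552 to 0.0932). It also ended without a dye term (0.159), with the array code prefix as a covariate (0.0654), with each time fitted alone (0.0824) and without the other-reference and repeat arrays (0.108). TDH1 was called at 45 min (−0.30, adjusted p = 0.0352), and that call ended without the first series of DBY8268 or YPS163, the second of K9 or M22 or either of RM11-1a (adjusted p from 0.0579 to 0.159). It ended as well without a dye term (0.079), with scaled arrays (0.0618), with each time fitted alone (0.0872) and without the other-reference and repeat arrays (0.132). TDH3 at 45 min, at −0.48 (adjusted p = 0.0023), passed under each alternative that tested it. With series as a block in place of the dye term, TDH1 passed at 5 min as higher (0.23, adjusted p = 0.0224) and at 120 min as lower (−0.22, adjusted p = 0.0432). It also passed as lower at 120 min with centred arrays (−0.32, adjusted p = 0.0383) and with each time fitted alone (−0.26, adjusted p = 0.0408). Leaving out K9 had the same outcome (−0.27, adjusted p = 0.0475), and without the first K9 series the value was −0.31.

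The TDH values differed between the dye orientations. At 60 min TDH2 averaged −0.29 ± 0.25 in the 650 orientation (SD, n = 6) and −0.65 ± 0.35 in the 550 orientation (n = 4). At 15 min its means lay on opposite sides of 0, at 0.10 ± 0.31 and −0.48 ± 0.40. All 10 members had means below 0 at 60 min in both orientations, whereas at 15 min 4 of 10 did in the 650 orientation and 9 of 10 in the 550 orientation. The part of the orientation in the early values was not tested beyond the dye term.

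PGK1 encodes phosphoglycerate kinase, the first ATP-forming step. At 15 min it ranged from −0.38 to 1.08 with a median of 0.38, and 8 of 10 arrays were above 0. Its fitted mean rose to 0.38 at 15 min (SE 0.17, adjusted p = 0.0368) and was −0.25 at 60 min, which did not pass (adjusted p = 0.218) except with each time fitted alone (−0.24, adjusted p = 0.0414). The rise was a weak call: it ended without any 1 of 6 of the 10 series, with adjusted p from 0.0599 to 0.167, and with each array centred on its median (0.35, adjusted p = 0.062), the array code prefix as a covariate (0.132) or each time fitted alone (0.065). Those series were the first of DBY8268, K9 and RM11-1a, both of M22 and the second of YPS163. In no single strain and time was PGK1 called, but under the series block it passed as higher in YPS163 at 15 min (0.70, adjusted p = 0.0326, against 0.108 with the dye term) and as lower in M22 at 60 min (−0.89, adjusted p = 0.0106, against 0.0564).

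GPM1 encodes phosphoglycerate mutase, which moves the phosphate before the enolase step. It was the only member to rise at 5 min, when 9 measured arrays ranged from 0.00 to 0.73 with a median of 0.42. The fitted mean was 0.39 (SE 0.08, adjusted p = 8.41e-05), and the mean was 0.45 ± 0.23 in the 650 orientation (SD, n = 6) and 0.31 ± 0.32 in the 550 orientation (n = 3). GPM1 then fell to −0.17 at 45 min (adjusted p = 0.0455) and −0.30 at 60 min (SE 0.07, adjusted p = 0.000936), and stood at −0.01 at 120 min. The call at 45 min ended without the second series of DBY8268 or K9, either of M22 or the first of RM11-1a or YPS163 (adjusted p from 0.0646 to 0.183). Further settings that ended it were no dye term (0.0755), scaled arrays (0.0536), the array code prefix (0.0573), a random series block (0.0708), each time alone (0.149), and leaving out K9 (0.145) or the other-reference and repeat arrays (0.156). The calls at 5 and 60 min passed under every alternative that tested them. Under the series block GPM1 also passed as higher at 15 min (0.15, adjusted p = 0.0435).

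ENO1 and ENO2 encode enolase, with ENO2 the isozyme known to be induced on glucose. ENO1 ranged from −0.82 to 0.53 with a median of −0.39 at 15 min and from −1.89 to 0.20 with a median of −0.77 at 60 min. ENO2 ranged from −0.73 to 0.35 with a median of −0.28 at 15 min and from −1.63 to 0.03 with a median of −0.70 at 60 min. Both fell from 30 min on: the fitted means at 60 min were −0.76 for ENO1 (SE 0.12, adjusted p = 3.83e-06) and −0.73 for ENO2 (SE 0.11, adjusted p = 2.69e-06), and at 120 min −0.70 and −0.63. At 15 min ENO1 was called lower (−0.31, adjusted p = 0.0191) and ENO2 was not (−0.24, adjusted p = 0.0591). That ENO1 call ended without any 1 of 4 series, the second of DBY8268, K9 and RM11-1a and the first of M22 (adjusted p from 0.0605 to 0.144), without a dye term (0.125) and with each time fitted alone (0.0513). ENO2 in turn passed with each array centred on its median (−0.27, adjusted p = 0.0361) and without the first series of DBY8268, K9 or RM11-1a or the second of YPS163 (adjusted p from 0.0142 to 0.0442).

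CDC19 encodes the main pyruvate kinase, the last step and a second site of ATP formation. It ranged from −1.51 to −0.16 with a median of −0.85 on 9 arrays at 15 min, from −1.75 to −0.30 with a median of −1.08 on 10 arrays at 30 min, and from −1.34 to −0.05 with a median of −0.57 on 9 arrays at 120 min. Every measured array lay below 0 from 15 min on. Its fitted mean was −0.86 at 15 min (SE 0.11, adjusted p = 3.02e-08), −1.07 at 30 min (adjusted p = 8.44e-11), −0.84 at 60 min and −0.66 at 120 min (adjusted p = 1.67e-05). It was called lower in 19 of the 30 groups of strain and time. The means of CDC19 at 30 and 45 min, −1.07 and −1.05, lay within 1 SE (0.10) of each other.

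A second comparison set 120 min against 15 min within each of the 10 series, whose arrays at these times share a 25C reference by their labels, so that it cancels. Here 4 of 10 members changed, all downward, against 63.8% of the 4698 genes tested (27.3% lower). The log2 difference, 120 minus 15 min, was −0.54 for PGK1 (SE 0.12, adjusted p = 0.00328), −0.38 for TDH3 (SE 0.12, adjusted p = 0.0152) and −0.39 for both ENO1 and ENO2 (adjusted p = 0.0317 and 0.0163). PGK1 was lower in 8 of 10 series, TDH3 and ENO2 in 9 and ENO1 in 8. CDC19 had a positive difference, 0.15, which did not pass (adjusted p = 0.226), and TPI1 stood at 0.00. The ENO1 call also ended without the first series of K9 or RM11-1a or the second of M22 or YPS163 (adjusted p from 0.0589 to 0.0903 over the 5 cases). Without the first DBY8268 series only PGK1 remained called, of 9 members that could be tested, and without the second RM11-1a series 7 of 10 were called.

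The members did not hold 1 common level within an array. As a description chosen after the values were seen, FBA1 was below PGK1 on 58 of 60 arrays and below GPM1 on 59 of 59, and CDC19 was below PGK1 on 55 of 57. The median difference of log2 ratios between FBA1 and PGK1 was −0.99 at 15 min, −1.05 at 30 min and −0.50 at 120 min. On the 46 arrays from 15 to 120 min with all 10 values, FBA1 and CDC19 each had a median rank of 2.0 from the lowest, and PGK1 and GPM1 of 10.0 and 9.0. A ratio of ratios shows unequal change and gives no level of one transcript against another.

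The third comparison asked whether the response differed between strains. Over the 30 groups of strain and time, 88 of 300 tests of members were called, 3 higher and 85 lower, against 33.3% of tests of all genes (15.8% lower). The calls numbered 24 of 60 in K9 (34% for all genes), 28 in M22 (44.9%), 13 in RM11-1a (26.7%), 12 in YPS163 (31.5%) and 11 in DBY8268 (29.4%). The F test over the 5 strains called 5 of 60 tests of members against 22.4% for all genes. Of these 5, 4 were at 60 min (FBA1, ENO1, ENO2 and CDC19) and 1 at 120 min (GPM1). At 60 min alone that is 4 of 10 members against 24% of all genes, and at 120 min 1 of 10 against 17.5%.

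At 60 min FBA1 was at −1.89 and −1.66 in K9 and −1.61 and −1.77 in M22, while it was at −1.01 and −0.92 in RM11-1a, −0.78 and −1.07 in YPS163 and −0.67 and −0.64 in DBY8268. The 4 arrays of K9 and M22 lay below the 6 others, a grouping seen in the values of a gene picked by the F test and not tested. The F test gave an adjusted p of 0.00504, and it passed under every alternative that tested it except scaling the arrays of each time to the same spread (0.0548). Against the mean of the other 4 strains, a follow-up added after these results, K9 stood at −0.81 (SE 0.23, adjusted p = 0.0487). K9 had no dye swap, so its value leans on the dye term.

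ENO1 at 60 min was at −0.98 and −0.94 in K9 and −1.12 and −1.89 in M22, against −0.24 and −0.85 in RM11-1a, 0.04 and −0.68 in YPS163 and 0.20 and −0.56 in DBY8268. ENO2 was at −0.92 and −0.77 in K9 and −1.32 and −1.63 in M22, and between −0.71 and 0.03 in the 3 other strains. CDC19 was at −1.08 and −1.02 in K9 and −1.18 and −1.87 in M22, and between −0.83 and −0.11 on the 5 arrays of the other 3 strains. For all 3 genes the 4 arrays of K9 and M22 lay below all others, a grouping seen in the values and not tested. The genes had been picked by the F test, and the share of all genes that separate in this way was not counted. PGK1, which the F test did not call, also separated at 60 min, with −0.25 the highest in K9 and M22 and −0.21 the lowest elsewhere. FBA1 did so at 45 min (−1.23 and −1.17). TPI1, the TDH genes and GPM1 overlapped at 60 min. The F tests gave adjusted p values of 0.0246 for ENO1, 0.0477 for ENO2 and 0.034 for CDC19. M22 was lower than the mean of the other 4 strains in ENO1 (−0.94, SE 0.30, adjusted p = 0.0267), ENO2 (−0.94, SE 0.28, adjusted p = 0.0185) and CDC19 (−0.86, SE 0.27, adjusted p = 0.0218). Of 300 such tests of a strain against the other 4, members gave 5 calls, against 6.61% for all genes. That share varied by strain and time. At 60 min the M22 tests called 3 of 10 members, against 18.9% of all genes, and the K9 tests 1 of 10, against 2.64%. The YPS163 tests at 120 min called 1 of 10, against 8.78%.

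These 3 F tests were less stable than that of FBA1. Each ended without a dye term (adjusted p = 0.187, 0.112 and 0.107 for ENO1, ENO2 and CDC19), with scaled arrays (0.14, 0.278 and 0.241) and with the array code prefix as a covariate (0.0587, 0.104 and 0.0815), and leaving out single series ended ENO1 in 4 of 10 cases, ENO2 in 6 of 10 and CDC19 in 4 of 8, the first and the second M22 series among them each time. The others were the first series of DBY8268 and of RM11-1a for ENO1, both of each of these strains for ENO2 and both of RM11-1a for CDC19. A random series block ended the tests of ENO2 (0.0865) and CDC19 (0.0721), a filter on each time alone that of ENO2 (0.0628), and leaving out the other-reference and repeat arrays that of CDC19 (0.0571).

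**Figure D2:**
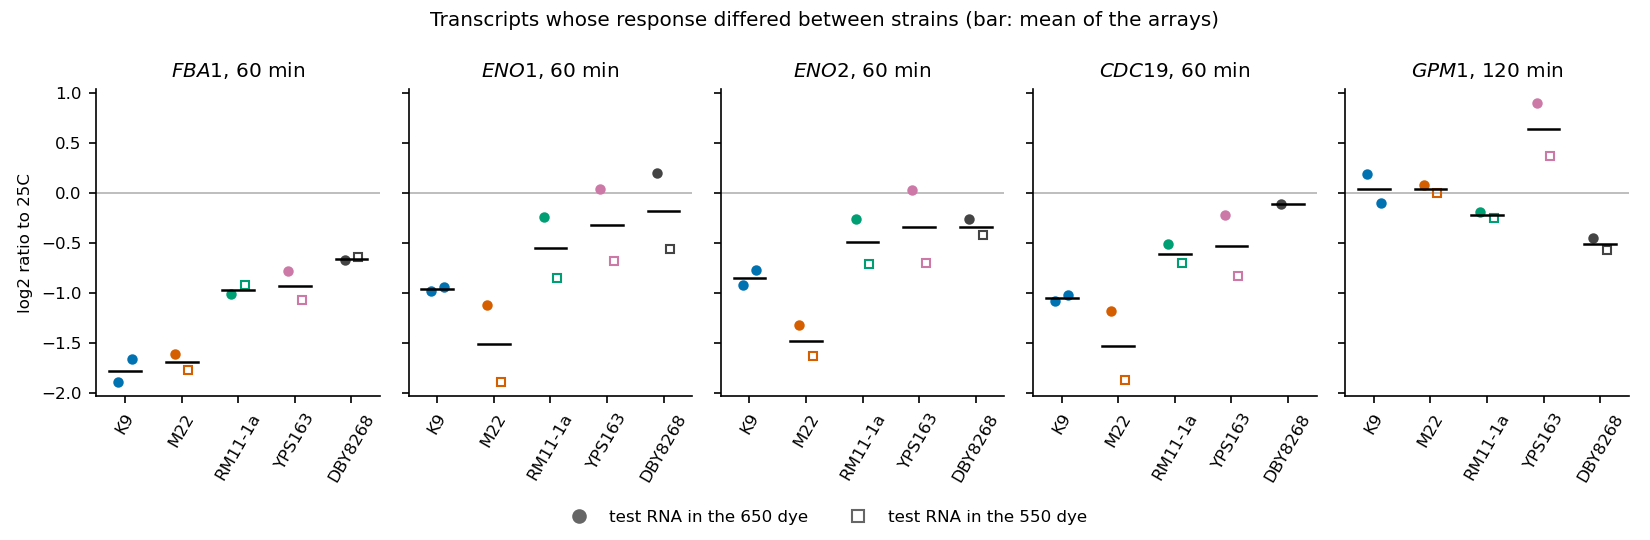
Log2 ratio to 25C (vertical axis) by strain (horizontal axis) at 60 min for FBA1, ENO1, ENO2 and CDC19 and at 120 min for GPM1; points are single arrays, filled for the 650 dye and open for the 550 dye, and bars are the means of the arrays, of which DBY8268 has 1 for CDC19. K9 and M22 were lowest in the first 4 panels, and YPS163 was highest for GPM1 at 0.90 and 0.37.

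GPM1 at 120 min followed another pattern. It was at 0.90 and 0.37 in YPS163, 0.08 and 0.00 in M22, 0.19 and −0.10 in K9, −0.19 and −0.25 in RM11-1a and −0.45 and −0.57 in DBY8268. The arrays of YPS163 lay above and those of DBY8268 below all others, for a gene picked by the F test on these values. The share of all genes that separate in this way was not counted. The F test gave an adjusted p of 0.00581, and YPS163 exceeded the mean of the other 4 strains by 0.81 (SE 0.18, adjusted p = 0.00346). The difference no longer passed without the first YPS163 series (adjusted p = 0.0778) or with each time fitted alone (0.0938). In the fits of single strains GPM1 was higher in YPS163 (0.64) and lower in DBY8268 (−0.51) at that time. Under the series block TDH2 also differed between strains at 120 min (adjusted p = 0.0481, against 0.348 with the dye term).

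The basal comparison at 25C asked whether the non-laboratory strains differed from DBY8268 before any heat shock. None of 40 tests of a member in a single strain was called by limma, against 18% of tests of all genes, and 1 of the 40 had an unadjusted p under 0.05. Without the second M22 array 2 were called. For the mean of the 4 strains 1 of 10 members was called, against 40.9% of 5306 genes. That was CDC19, at −0.51 and −0.67 in K9, −0.26 and 0.03 in M22, 0.15 and −0.35 in RM11-1a and −0.11 and −0.63 in YPS163, all relative to DBY8268. Its mean was −0.29 (SE 0.09, adjusted p = 0.0387), with 6 of 8 arrays below 0. DBY8268 was the partner on all 8 arrays, which the fit took as independent. A deviation on the DBY8268 side would shift all 8 ratios together, for CDC19 as for any other gene. The call ended without any 1 of 6 of the 8 arrays (adjusted p from 0.0508 to 0.139), the exceptions being the first RM11-1a and the second M22 array. The limma F test over the 4 strains called 0 of 10 members, against 10.8% of all genes, and 0 had an unadjusted p under 0.05.

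The spread at 25C was large for several of these genes, and in all strains but M22 most members were higher on the first array. TDH3 was at 1.06 and 0.15 in YPS163, 0.66 and −0.72 in RM11-1a, 0.27 and −0.49 in K9 and −0.26 and −0.01 in M22. The first array of each strain carried the strain's RNA in the 650 dye. The 3 TDH genes differed by 0.70 to 0.74 between the means of the 2 orientations (n = 4 each), ENO1 by 0.65 and GPM1 by 0.03. Replicate 1 exceeded replicate 2 for 10 of 10 members in RM11-1a, 9 of 10 in K9 and in YPS163, and 2 of 10 in M22. The dye and the replicate number are the same at 25C and cannot be told apart there.

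**Figure D3:**
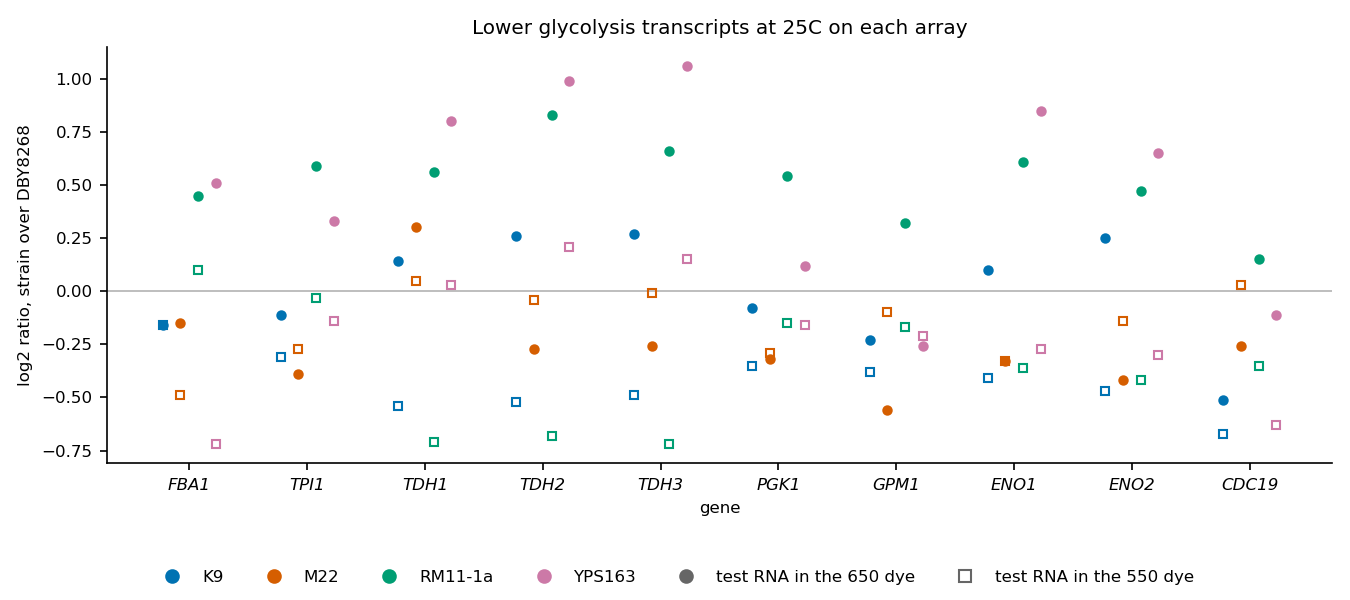
Log2 ratio of each strain over DBY8268 at 25C (vertical axis) for the 10 genes (horizontal axis); points are the 8 arrays, coloured by strain, filled where the strain's RNA carried the 650 dye and open where it carried the 550 dye. TDH3 of RM11-1a stood at 0.66 on the filled and −0.72 on the open point, and CDC19 had 6 of 8 arrays below 0.

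The isozymes were compared as the difference of their log2 ratios on the same array, in which a shift of the whole array cancels. The ratio of the isozymes in the 25C reference RNA stays in the difference. So does a dye effect that differs between the 2 genes, and the isozyme tests had no dye term. In the time courses without K9, the 650 mean exceeded the 550 mean by 0.54 for ENO1 and 0.30 for ENO2. For TDH1, TDH2 and TDH3 it did so by 0.29, 0.47 and 0.46. The sources used here do not say how far the array probes separate near-identical paralogs. TDH1, TDH2 and TDH3 are such paralogs, and so are ENO1 and ENO2, so signal shared between probes and a shared response cannot be told apart.

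The isozymes of a step had similar values on most arrays. The median absolute difference on an array was 0.13 between TDH1 and TDH2, 0.13 between TDH1 and TDH3, 0.10 between TDH2 and TDH3 and 0.17 between ENO1 and ENO2. Differences were within 0.5 on 57 of 60, 53 of 59, 55 of 59 and 59 of 60 arrays. The widest was 1.11, between TDH2 and TDH3 in the second M22 series at 30 min, where TDH2 was at −0.74 and TDH3 at 0.37. That series at 30 and 45 min is among those whose labels name another 25C reference, and at 45 min TDH3 was at −1.94 there while TDH2 was at −1.03. As a description over arrays, which share strains, references and dyes, r was 0.87, 0.83 and 0.84 for the TDH pairs and 0.92 for ENO1 and ENO2.

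No isozyme difference passed an exact two-sided sign-flip permutation test over the 10 series, with 24 tests of 4 pairs at 6 times. The smallest p was that of TDH2 minus TDH3 at 15 min, with a mean of −0.15 ± 0.22 (SD, n = 10), TDH2 lower in 9 of 10 series, exact p = 0.00977 and adjusted p = 0.234. TDH1 exceeded TDH2 at 15 min by 0.13 ± 0.16 in 8 of 10 series (exact p = 0.0215, adjusted p = 0.258). ENO1 minus ENO2 averaged between −0.10 and 0.05 at the 6 times, with SD from 0.17 to 0.27, and single series between −0.55 and 0.46. A p that misses the threshold does not show that isozymes responded alike. Of 24 tests 2 had an unadjusted p under 0.05, as did 2 of 22 exact permutation tests of a difference between strains, of which none passed after adjustment. The smallest p was 0.0339, for TDH1 minus TDH2 at 120 min (adjusted p = 0.407). At 25C none of the 4 pairs differed over the 8 arrays, with means between −0.02 and 0.03 and exact p of 0.547 or above. Those 8 arrays share DBY8268 as partner, while the sign flips took them as independent.

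**Figure D4:**
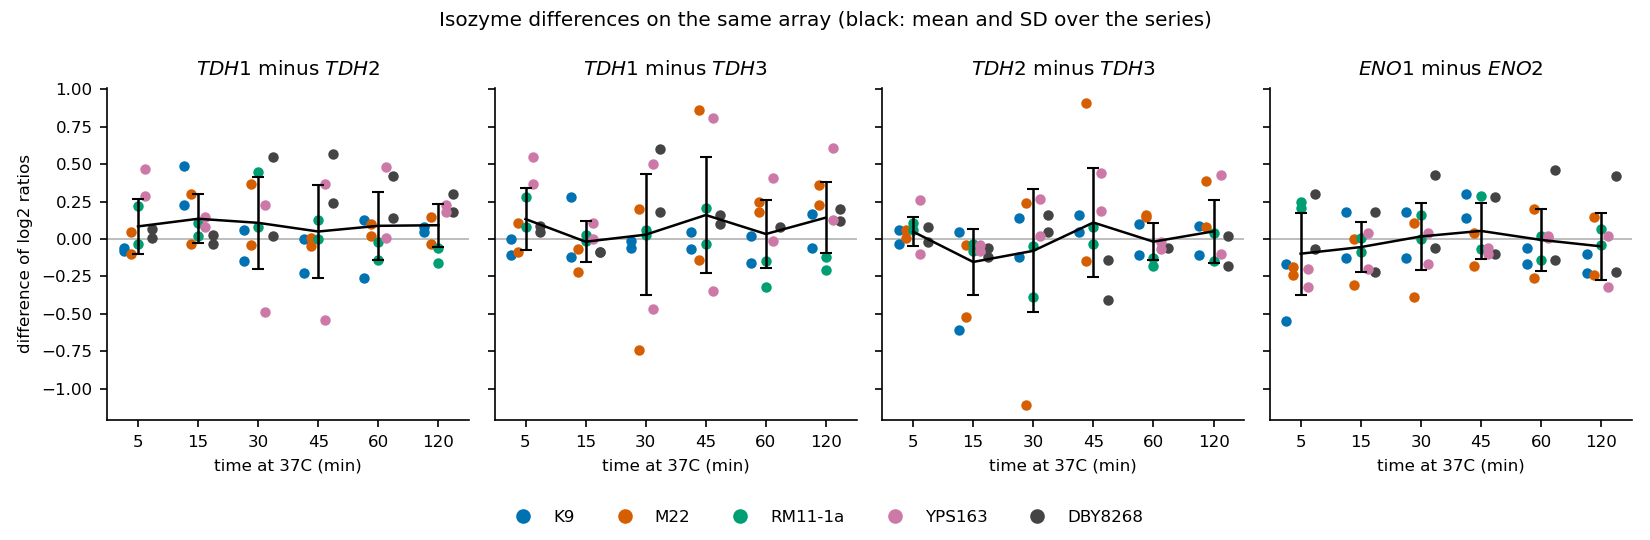
Difference of the log2 ratios of 2 isozymes on the same array (vertical axis) against time at 37C in min (horizontal axis), in 4 panels; points are series coloured by strain, and the black line and bars are the mean and SD over the 9 or 10 series. The means stayed between −0.15 and 0.16, and the widest single difference was −1.11 for TDH2 minus TDH3 at 30 min.

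Likeness of pattern was measured as Pearson's r over the 30 fitted group means among 4360 genes, which share arrays and dyes, and is given as a description. The nearest gene to ENO1 was ENO2 and the reverse, at r = 0.93. TDH1 was nearest to TDH2 (0.88), followed by ENO2 (0.87), TDH3 (0.84), GPM1 (0.83) and ENO1 (0.82), so all 5 were members. TDH2 had TDH1, GPM1 (0.85), COS3 (0.83), TDH3 (0.83) and ENO2 (0.82) nearest, and TDH3 had ENO2 (0.86), TDH1, TDH2, LAS17 (0.80) and PGK1 (0.79). The other neighbours of ENO1 were STB6 and FBA1 (0.87 each), ADH1 (0.86) and TDH1, and those of ENO2 were FBA1 (0.88), STB6 (0.87), TDH1 (0.87) and TDH3 (0.86).

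The 5 nearest genes to CDC19 held no member, by a narrow margin: FBA1 was at 0.83, just below the fifth at 0.84, and CDC19 was itself the fifth nearest to FBA1. The 5 were RSC58 (0.90), the pyruvate decarboxylase genes PDC5 and PDC1 (0.88 each), STB6 (0.87) and ADH1 (0.84), the main alcohol dehydrogenase. In the mean of 5 strains the log2 ratios at 15, 30 and 60 min were −1.05, −1.62 and −1.16 for PDC1, −1.11, −1.53 and −1.14 for PDC5 and −0.86, −1.07 and −0.84 for CDC19. PDC1 and PDC5 are paralogs too, with the same limit on their probes.

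The rest of the pathway was read from lists of genes. In upper glycolysis 2 of 6 genes rose and 4 fell at 15 min, and the same counts held at 60 min. Of all genes 38.1% rose and 39.9% fell at 15 min. At 60 min 1060 of 4360 rose and 22.6% fell. The glucose-repressed hexokinase gene HXK1 rose by 5.55 (SE 0.19, adjusted p = 4.95e-23) and the glucokinase gene GLK1 by 4.63 (SE 0.23). The hexokinase gene HXK2, which dominates on glucose, fell by 0.73 (SE 0.07) and PFK1, for a subunit of phosphofructokinase, fell by 0.81 (SE 0.09). At 60 min HXK1 was still at 2.39 and GLK1 at 0.94. The median of the 6 genes was −0.39 at 15 min and −0.65 at 60 min, against −0.21 and −0.60 for the members.

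Of 8 listed pyruvate decarboxylase and alcohol dehydrogenase genes, 7 were testable. All 7 fell at 15 min, against 39.9% of all genes, with a median of −0.50. At 60 min 6 fell, against 22.6%. Besides PDC1 and PDC5, ADH4 stood at −0.50 and ADH3 at −0.33 at 15 min. ADH4 did not stay lower: it was at 0.14 at 60 min, which did not pass (adjusted p = 0.0985). It was called higher at 45 min (0.32, adjusted p = 0.0002) and at 120 min (0.21, adjusted p = 0.0116). Of 6 minor paralogs of lower glycolysis only 2 had values in all groups. PYK2, the glucose-repressed pyruvate kinase, rose to 2.10 at 15 min (SE 0.22, adjusted p = 1.36e-09) and 0.56 at 60 min, opposite to CDC19. GPM3, a paralog of GPM1 with no established activity in glycolysis, fell to −0.45 at 15 min. Named after its values were seen, GPM2, another GPM1 paralog, had 8 arrays at 15 min from 3.18 to 4.65 with a median of 3.69 and was not tested.

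For the reverse direction, PYC1 and PYC2, isozymes of pyruvate carboxylase, moved oppositely at 15 min, PYC1 by 2.39 (SE 0.11) and PYC2 by −1.33 (SE 0.09), and FBP1 and PCK1 lacked values in some groups. Among 3 testable regulators of 4, GCR1 rose to 0.66 at 15 min (SE 0.12, adjusted p = 4.17e-06) and fell to −0.55 at 60 min (adjusted p = 0.000171), RAP1 fell to −0.75 at 15 min, and TYE7 at −0.11 was not called.

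**Figure D5:**
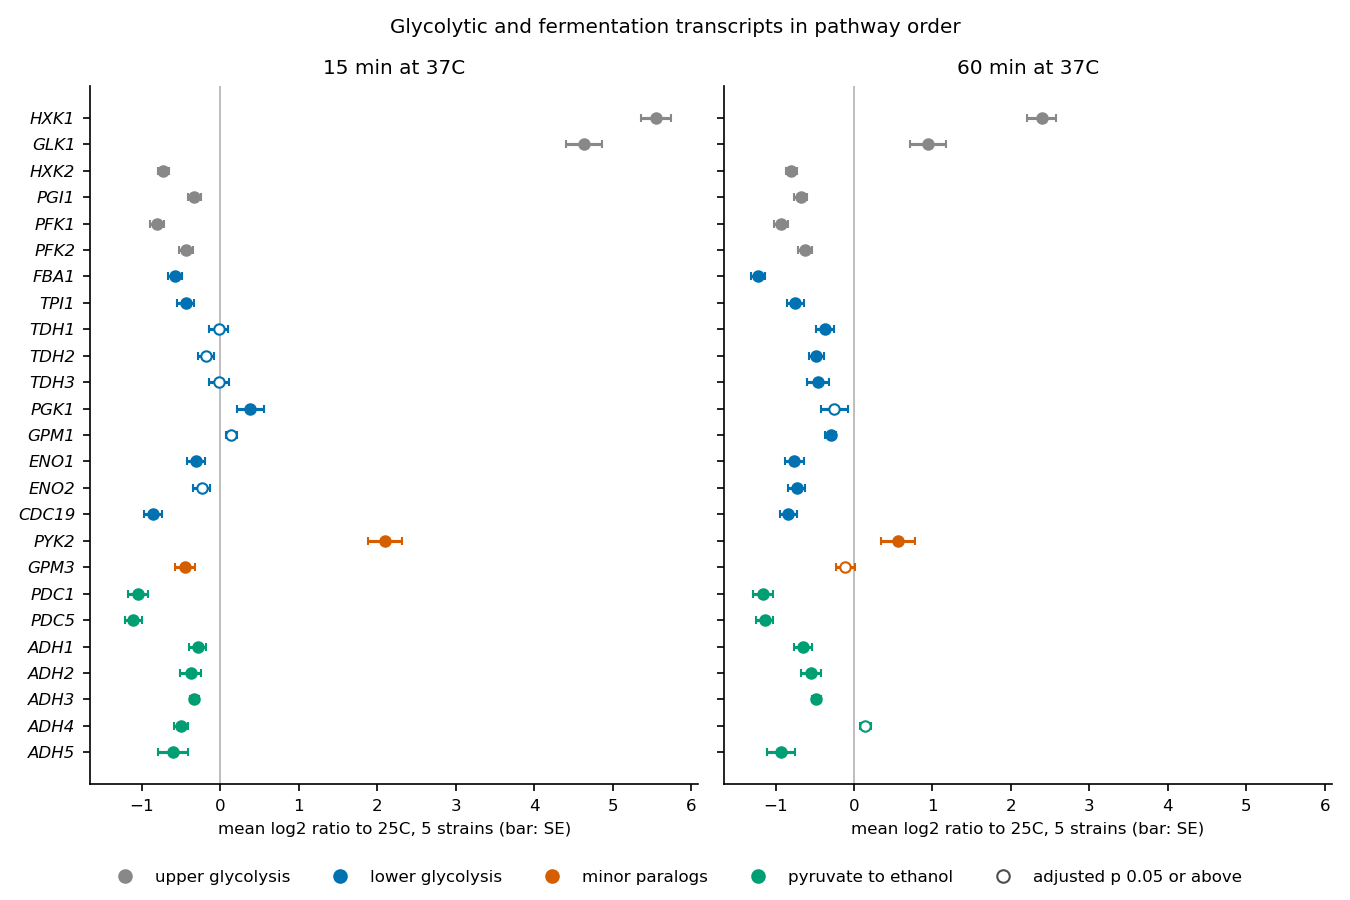
Mean log2 ratio to 25C over the 5 strains (horizontal axis, bars are SE) at 15 and 60 min for genes in pathway order (vertical axis), coloured by group; open circles mark adjusted p of 0.05 or above. HXK1, GLK1 and PYK2 lay to the right of 0 at both times, at 5.55, 4.63 and 2.10 at 15 min, while the members lay between −0.86 and 0.38 at 15 min and between −1.22 and −0.25 at 60 min.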

How the data were processed

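Each sample was a 2-colour array with indirect amino-allyl labelling, per the labels' protocols. The authors deposited 1 table of log ratios per reading frame, read here as log2; base, normalization, background correction, scanner software and array code meaning are not given in the sources used here. RefSeq symbols matched 5832 of 6297 reading frames. No spot intensities or sequences were used.

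Per gene, least squares fitted the 30 means of strain and time with a dye orientation term on 60 arrays (4360 genes with a value in every group), and 4 strain means with that term on 8 arrays at 25C (5306 genes). Missing values were dropped, not imputed. Variances were moderated with limma 3.58.1 in R 4.3.3, and p-values were Benjamini-Hochberg adjusted over all genes tested, with a threshold of 0.05. The change between 15 and 120 min was fitted on 10 differences within series (4698 genes). Isozyme differences were tested on the same array by exact two-sided permutation, by sign flips over series (smallest p 0.00195 with 10) and over 945 pairings between strains (smallest p 0.00106). The fits were run on simulated data with known changes, in which arrays varied independently apart from a dye effect. That setting lacks the correlation within a series, so it cannot show the error rate under such correlation. Exact tests, counts and figures were made in Python 3.11.15 with pandas 2.3.3, numpy 2.4.6 and matplotlib 3.10.9.

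Series numbers pair arrays within a strain, since the labels give the arrays of a series a shared 25C reference, with 3 exceptions. The consensus correlation within a series was 0.34. The main fit took the arrays of a series as independent, with 29 residual degrees of freedom, so its very small p-values may overstate the evidence from 10 series. The fit with series as a block replaced the dye term; at 25C the dye term is itself the replicate block.

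All members were named. Of each other list, up to 4 genes with the smallest p at 15 min were named, plus any on which a count of 5 or fewer turned, and the 5 nearest genes by pattern for the TDH and ENO genes and CDC19. The members and lists were chosen with earlier results of these data known. Alternatives were centring, scaling, no dye term, array code prefix, series as a fixed or random block, filters on missing values, each time alone, leaving out each series, and the arrays with another reference; leaving out K9 and setting each strain against the others were added after seeing the data.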

Additional observations from a re-analysis of the deposited data

Results flagged for a closer look

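The response of 5 members differed between the 5 strains by the F test (limma, Benjamini-Hochberg over all genes tested), which is a test of the difference itself. At 60 min these were FBA1 (adjusted p = 0.00504), ENO1 (adjusted p = 0.0246), CDC19 (adjusted p = 0.034) and ENO2 (adjusted p = 0.0477), with fitted log2 ratios of −1.87 in K9, −1.69 in M22 and −0.66 in DBY8268 for FBA1. At 120 min it was GPM1 (adjusted p = 0.00581), with 0.64 in YPS163 and −0.51 in DBY8268. The 5 calls among 60 tests stand beside 22.4% of tests of all genes. The dye orientation, the absence of a swap in K9 and the separation of the series move with these values, and their part in the differences was not tested beyond the dye and block terms. Each group had 2 arrays, too few to look for a single array that stands apart.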

How the results depend on the processing

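No call of a member reversed its direction under any alternative run. Of results recomputed without 1 series or array, 1187 kept their side of the threshold, or stayed within 1.5 times a count, while 56 were lost, 22 gained and 41 counts moved. Under the other alternatives these numbers were 1274, 37, 11 and 10. Counts of members called in the mean of 5 strains, 1 at 5 min, 5 at 15 min, 9 at 45 and 60 min and 7 at 120 min, became 0, 3, 5, 5 and 4 among genes complete on all arrays, where 6 members could be tested. The count at 15 min was 3 with each time fitted alone, and that at 5 min was 2 with the replicate block. Of 300 tests in single strains, 88 calls became 57 without a dye term and 55 of 180 among complete genes; the block gained 18 and lost 2 (TPI1 in K9 at 45 min, adjusted p = 0.0931, and ENO2 in K9 at 120 min, 0.0539), 104 in all. The block changed no call of the means or F tests other than those given with the results. The calls it gained leave the offset between the series of a strain out of the error. The 5 calls of the F test became 2 without a dye term, 1 with scaled arrays, 2 with the array code prefix, 3 with a random series block and 3 among complete genes. At 25C scaling gave 1 call in single strains in place of 0. For the change between 15 and 120 min, the exact permutation test gave 7 members at an unadjusted p under 0.05, which is not comparable with the 4 adjusted calls; 6 were lower and CDC19 was higher (0.17, lower in 2 of 8 series, exact p = 0.0391).

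Leaving out 1 series or array at a time, the counts ranged from 0 to 3 at 5 min, 3 to 6 at 15 min, 4 to 7 at 30 min, 4 to 9 at 45 min, 5 to 9 at 60 min and 4 to 8 at 120 min, from 44 to 98 in single strains, 1 to 7 for the F test, 0 to 2 and 0 to 1 for single strains and their mean at 25C, and 1 to 7 for the change. Without the first DBY8268 series only 6 members could be tested in the time courses. The isozyme tests gave 0 throughout, and over 5 strain means an exact sign-flip permutation test cannot go below p = 0.0625. Centring moved the share of higher among called genes from 60.2% to 48.3% at 30 min, 62.3% to 47.2% at 45 min and 59.5% to 47% at 120 min. With 2 arrays a group, small differences between strains were not detectable.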

Other observations

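Chosen after its values were seen, STB6 (YKL072W) had the highest likeness to FBA1 (YKL060C) over the 30 group means (r = 0.97, a description), with fitted means over the 5 strains of −0.56 (15 min), −1.09 (60 min) and −0.71 (120 min). Whether this likeness lies in the transcripts or in the array was not tested. GPM2, which could not be tested, had 6 arrays at 60 min between 2.29 and 3.31 with a median of 2.99.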
